A study of Solanum lycopersicum with 18 samples.

Results

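A group of 4 brassinosteroid genes of tomato was followed through seed osmopriming: DWARF (Solyc02g089160.3.1), CPD (Solyc06g051750.3.1), DET2 (Solyc10g086500.1.1) and the receptor gene BRI1 (Solyc04g051510.1.1). They were selected by identifier and not by a measured value, but with earlier results of these data known. They are 4 of the 33976 genes in the expression tables. All 4 were detected in all 18 libraries and were among the 19914 genes that passed the filter on low counts. Seeds of the cultivars Micro-Tom, Criollo and Stupicke were imbibed for 48 h in the dark in polyethylene glycol at an osmotic potential of -1 MPa. The solution held either no elicitor (here called mock) or 2 mM methyl jasmonate (MeJA), the volatile ester of the wound hormone jasmonic acid. All 6 groups, controls included, were washed and dried again for 48 h after priming. The RNA is taken here to be that of re-dried primed seeds, although the paper's Discussion speaks of imbibed seeds. Each group had 3 biological replicates of 30 seeds, and each library is thus a pool of whole seeds with embryo, endosperm and seed coat together. In such bulk samples fewer cells of a type and less RNA per cell cannot be told apart. The paper describes the replicates as sets of 30 seeds and does not describe separate seed lots for them. Cultivar and seed lot can then not be told apart, and the p values below measure the spread between such sets.

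Brassinosteroids are steroid hormones made from plant sterols that promote cell elongation and, in seeds, favour germination. DET2 encodes a steroid reductase acting early in the pathway, CPD a cytochrome P450 that hydroxylates intermediates, and DWARF a cytochrome P450 that catalyses the late oxidation yielding castasterone, the main active brassinosteroid of tomato shoots. The hormone is sensed at the cell surface by the receptor kinase BRI1, and in Arabidopsis the transcription of several synthesis genes, CPD among them, is lowered once the hormone is perceived. Micro-Tom, a miniature cultivar, carries a mutated DWARF gene that is misspliced and contributes to its small stature. The gene totals used here do not tell normal from misspliced DWARF transcripts, and a level of DWARF is therefore a level of RNA and not of working enzyme. Micro-Tom differs from both other cultivars at many further loci, so that effects of the dwarf allele and of the rest of the genome cannot be told apart.

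The libraries held 18807931 to 20560389 estimated reads. Across genes, log counts of replicates correlated with r of 0.975 to 0.992 within 5 of the groups and of 0.932 to 0.991 in mock-primed Micro-Tom, where replicate 3 stood apart. When genes were ordered by transcript length and divided into 8 equal classes, the median log2 difference of replicate 3 from the mean of replicates 1 and 2 ran from 0.55 in the shortest class to -0.68 in the longest. DET2 lies in the second shortest class and differed by 1.19 in that library. CPD, in class 6, differed by 0.00, DWARF, in class 5, by -0.45, and BRI1, in the longest class, by -1.39. Between mock-primed Micro-Tom and Criollo the median log2 fold change was 0.44 in the shortest and -0.39 in the longest class. Between mock-primed Micro-Tom and Stupicke it was 0.28 and -0.38. In the class of DET2 the medians of these comparisons were 0.525 and 0.531. A slope of the same sign, but smaller, was present between MeJA-primed Micro-Tom and Criollo, with medians of 0.20 in the shortest and -0.12 in the longest class. Within Micro-Tom, MeJA minus mock had the opposite slope, from -0.15 in the shortest to 0.21 in the longest class, with replicate 3 among the mock libraries. Values without replicate 3 or with the length trend removed are given beside some of the results that use these libraries. The 7 seed storage and oil-body genes that could be matched were above 0 in every group. Their summed levels were 4188 to 5267 transcripts per 1000000 (TPM) in mock-primed and 7105 to 12120 TPM in MeJA-primed Criollo. The corresponding sums were 27120 to 30460 and 24500 to 31900 TPM in Stupicke, and 8600 to 12200 and 20320 to 24530 TPM in Micro-Tom. These sums thus moved with genotype, and in Criollo and Micro-Tom with MeJA, and their part in the values below was not tested. The 7 genes were those that the annotation in the study's supplement pairs with an identifier. That annotation covers genes the study called under MeJA, so movement of the sums with MeJA is not independent of this choice. Nor is their detection, which is therefore no test of the labelled tissue. Markers of adhering fruit or of green tissue were not examined.

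**Figure D1:**
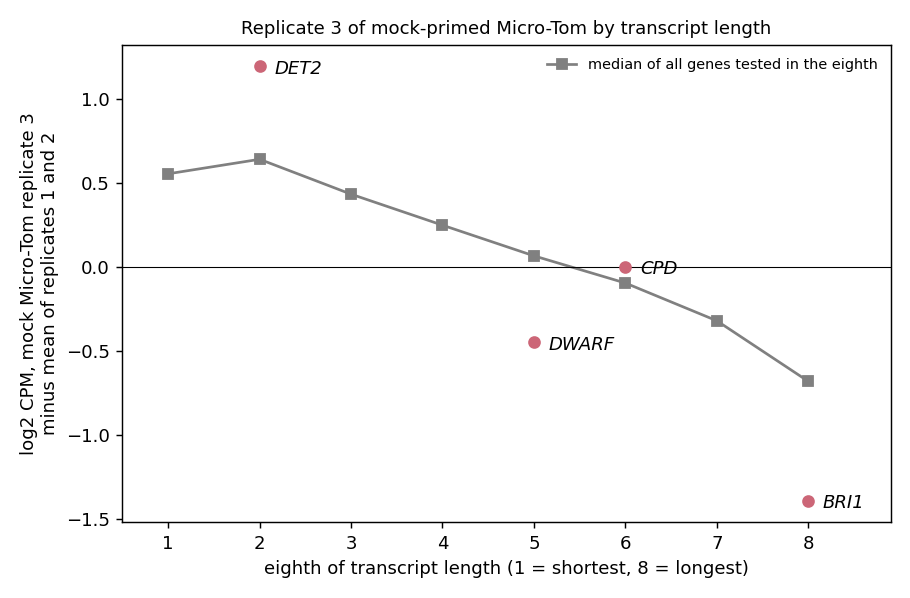
Log2 difference of CPM in replicate 3 of mock-primed Micro-Tom from the mean of replicates 1 and 2 (vertical axis) against the class of transcript length (horizontal axis, 1 shortest to 8 longest). CPM are reads per 1000000 scaled by a normalization factor (TMM) per library. Squares are medians of all genes tested in a class and circles are the 4 brassinosteroid genes; BRI1 at -1.39 and DET2 at 1.19 lie at opposite ends of the trend.

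In mock-primed seeds the 3 synthesis genes were higher in Micro-Tom than in both other cultivars, and the receptor gene was not. DWARF was 5.50-fold and CPD 4.17-fold higher in Micro-Tom than in Criollo, and 2.49-fold and 1.70-fold higher than in Stupicke. DET2 was 3.61-fold and 3.45-fold higher, in the same order. Levels are given below as TPM, which corrects for transcript length and can be set side by side between genes, while fold changes come from the edgeR quasi-likelihood test on counts, with Benjamini-Hochberg adjustment over the 19914 genes tested and a threshold of 0.05. The log2 difference is the log2 fold change of that test, and a gene past the threshold is called.

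DWARF, the gene of the late P450, was at 7.84, 8.11 and 9.43 TPM in the 3 mock-primed Criollo replicates. In Stupicke it was at 14.8, 15.3 and 15.8 TPM, and in Micro-Tom at 45.9, 52.1 and 23.8 TPM. The 3 cultivars did not overlap, and the lowest Micro-Tom library, replicate 3, was still above the highest of Stupicke. The log2 difference was 2.46 (SE 0.18, adjusted p = 7.67e-08) for Micro-Tom against Criollo and 1.31 (SE 0.17, adjusted p = 1.20e-05) for Micro-Tom against Stupicke. Stupicke in turn exceeded Criollo by 1.15 (SE 0.18, adjusted p = 0.000132). Without replicate 3 of mock-primed Micro-Tom the first 2 differences were 2.59 and 1.45. The rank of DWARF within a library moved accordingly, from above 59.2 to 64.9% of all genes in Criollo to above 84.8 to 90.2% in Micro-Tom, treatments together.

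CPD, the gene of the earlier P450, followed the same order of cultivars. It was at 20.3, 18.5 and 26.7 TPM in Criollo, 44.8, 43.8 and 47.0 TPM in Stupicke and 89.2, 90.3 and 62.9 TPM in Micro-Tom. Again no library of one cultivar reached into the range of another. The log2 difference was 2.06 (SE 0.14, adjusted p = 4.02e-08) for Micro-Tom against Criollo, 0.77 (SE 0.14, adjusted p = 0.000194) for Micro-Tom against Stupicke and 1.30 (SE 0.14, adjusted p = 4.94e-06) for Stupicke against Criollo. Leaving out replicate 3 of mock-primed Micro-Tom gave 2.06 for the first and 0.77 for the second. For CPD that library was low in TPM and in deposited counts, which were 2600, 2541 and 2230 in the 3 replicates. It was not low in counts per 1000000 reads scaled by a normalization factor (TMM) per library (CPM), at 124.3, 122.8 and 123.6. Those factors were 1.085, 1.096 and 0.919. The CPM are not divided by the transcript length that Salmon estimated in each library.

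DET2, the gene of the early reductase, differed from DWARF and CPD in that Stupicke did not stand between the other cultivars. Its mock levels were 11.6, 17.8 and 7.90 TPM in Criollo, 10.6, 11.9 and 10.7 TPM in Stupicke and 27.2, 23.3 and 39.6 TPM in Micro-Tom. All Micro-Tom libraries were above all others, with replicate 3 the highest, and Criollo spread to both sides of Stupicke. The log2 difference was 1.85 (SE 0.36, adjusted p = 0.000624) against Criollo and 1.79 (SE 0.36, adjusted p = 0.000584) against Stupicke. Without replicate 3 of mock-primed Micro-Tom the values were 1.34 and 1.28, and with the length trend removed from each library they were 1.35 and 1.26, all past the threshold. In means of TPM, Micro-Tom exceeded Criollo 2.42-fold, and in means of CPM 3.63-fold. Between Stupicke and Criollo the difference was 0.07 (95% interval -0.72 to 0.86, adjusted p = 0.908), which does not show equal levels.

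BRI1, the receptor gene, was at 51.4, 47.4 and 50.9 TPM in mock-primed Criollo and at 45.2, 49.3 and 47.7 TPM in Stupicke. In Micro-Tom it was at 57.9, 56.7 and 14.7 TPM. In TPM, replicates 1 and 2 of Micro-Tom were above all libraries of the other cultivars and replicate 3 was far below them, so that the groups overlapped. In CPM, replicates 1 and 2 were at 158.6 and 151.3. These were above Criollo, at 127.3 to 137.6 CPM, but within the range of Stupicke, at 144.5 to 164 CPM. BRI1 is in the longest length class, whose median log2 difference in replicate 3 of mock-primed Micro-Tom was -0.68, beside -1.39 for BRI1. What part transcript length has in the low BRI1 value was not tested. The log2 difference was -0.12 (95% interval -0.61 to 0.37, adjusted p = 0.677) against Criollo and -0.32 (95% interval -0.81 to 0.17, adjusted p = 0.240) against Stupicke. The sign against Criollo turned when replicate 3 was left out, which gave 0.21 (adjusted p = 0.0210), and against Stupicke the value was then 0.01 (adjusted p = 0.887). With the length trend removed from each library the values were 0.20 (adjusted p = 0.257) against Criollo, again of the other sign, and -0.04 (adjusted p = 0.820) against Stupicke. Stupicke minus Criollo was 0.20 (95% interval -0.29 to 0.68, adjusted p = 0.527) and passed the threshold without that library, at 0.20 (adjusted p = 0.0156), and when only the groups compared were fitted, at 0.21 (adjusted p = 0.0332).

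**Figure D2:**
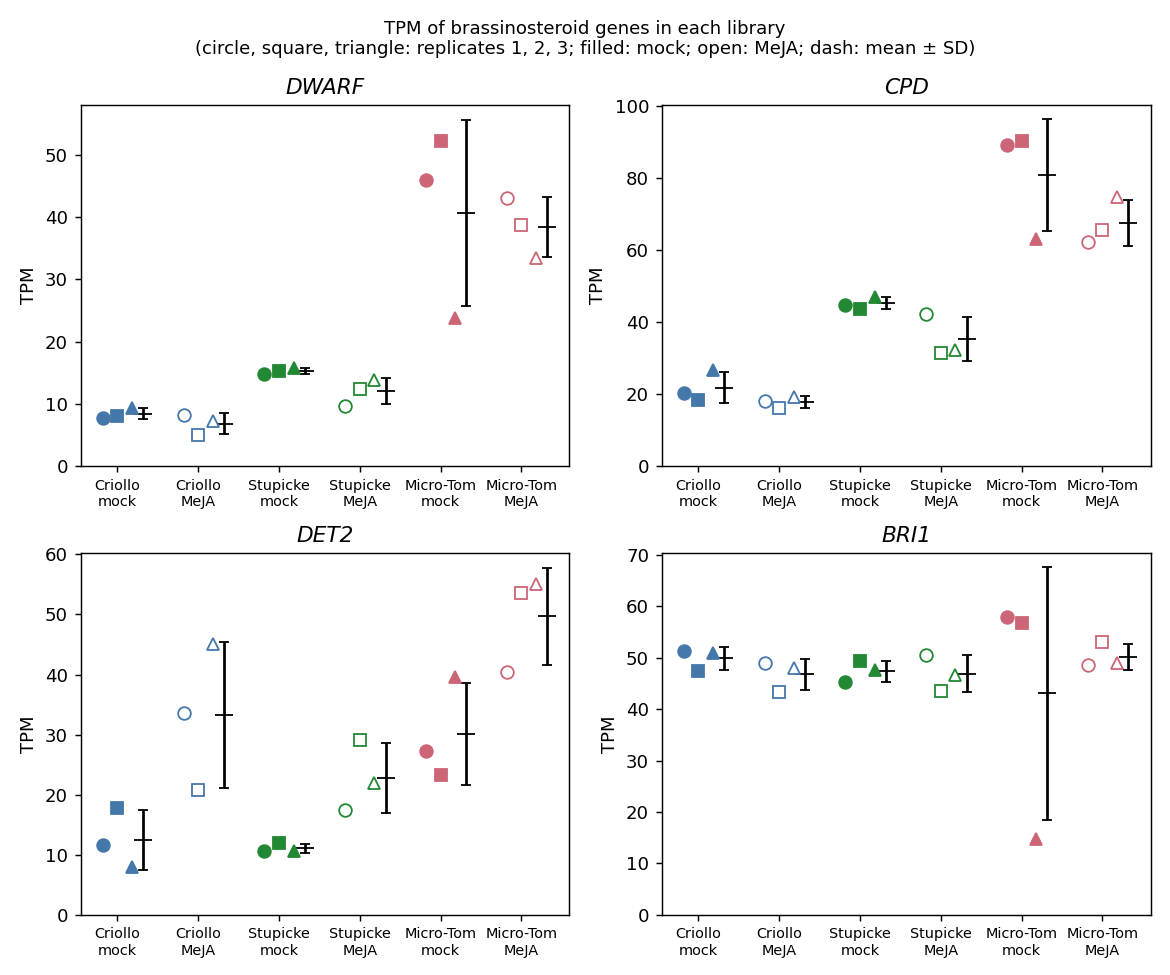
TPM (vertical axes, linear from 0) of the 4 genes in each library, by cultivar and treatment; circle, square and triangle are replicates 1, 2 and 3, filled for mock and open for MeJA, and the bar is the mean with its SD (n = 3). DWARF and CPD step up from Criollo over Stupicke to Micro-Tom, while BRI1 lies between 43.3 and 57.9 TPM in all libraries but replicate 3 of mock-primed Micro-Tom, at 14.7 TPM.

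These calls were made where calls were common. Between mock-primed Micro-Tom and Criollo 50.0% of all genes tested were called, and 3 of the 4 brassinosteroid genes, all higher in Micro-Tom. Between Micro-Tom and Stupicke the share was 60.5% and the count again 3 of 4. Between Stupicke and Criollo it was 41.7%, with 2 of 4 called, both higher in Stupicke. At such shares a count of called genes says little about these genes, and their differences are therefore set beside those of all genes. The median log2 fold change of the 4 genes was 1.96 for Micro-Tom against Criollo and 1.04 against Stupicke, beside -0.003 and 0.03 for all genes tested. For Micro-Tom against Criollo, DWARF exceeded 96.4% of all genes tested in its log2 fold change, CPD 95.2%, DET2 94.1% and BRI1 43.3%. For Micro-Tom against Stupicke the shares were lower, with 84.9% for DWARF, 74.6% for CPD, 90.5% for DET2 and 35.1% for BRI1.

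After priming with MeJA the cultivars kept the same order in DWARF and CPD. DWARF was at 8.21, 5.07 and 7.36 TPM in Criollo, 9.75, 12.5 and 13.9 TPM in Stupicke and 43.0, 38.8 and 33.4 TPM in Micro-Tom. CPD was at 18.2, 16.1 and 19.3 TPM in Criollo, 42.4, 31.6 and 32.2 TPM in Stupicke and 62.2, 65.6 and 74.6 TPM in Micro-Tom. For neither gene did the cultivars overlap, and here replicate 3 of Micro-Tom did not stand apart. Micro-Tom exceeded Criollo by 2.47 on the log2 scale (SE 0.18, adjusted p = 9.15e-08) in DWARF and 1.88 (SE 0.14, adjusted p = 1.06e-07) in CPD. Against Stupicke the values were 1.54 (SE 0.18, adjusted p = 5.88e-06) and 0.79 (SE 0.14, adjusted p = 0.000282). Stupicke exceeded Criollo by 0.93 (SE 0.18, adjusted p = 0.00168) in DWARF and by 1.09 (SE 0.14, adjusted p = 5.43e-05) in CPD. Mock-primed and MeJA-primed seeds may come from the same seed lot of each cultivar, and the 2 treatments are then not independent comparisons of the cultivars.

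For DET2 the cultivars were closer to each other under MeJA. Its levels were 33.7, 20.9 and 45.1 TPM in Criollo, 17.4, 29.1 and 21.9 TPM in Stupicke and 40.5, 53.5 and 55.1 TPM in Micro-Tom. Micro-Tom did not overlap Stupicke but overlapped Criollo, whose replicate 3 was above replicate 1 of Micro-Tom. Against Stupicke the log2 difference was 1.24 (SE 0.35, adjusted p = 0.00898). Against Criollo it was 0.83 (95% interval 0.11 to 1.56, adjusted p = 0.0655), short of the threshold. That call depended on the processing, since the difference passed with DESeq2 (0.85, adjusted p = 0.0499) and when only the groups compared were fitted (0.84, adjusted p = 0.0169). It also passed without replicate 2 (0.83, adjusted p = 0.0498) or replicate 3 (0.83, adjusted p = 0.0171) of mock-primed Micro-Tom, which entered this comparison only through the shared spread, and without replicate 3 of MeJA-primed Criollo (1.11, adjusted p = 0.0391). Stupicke minus Criollo was -0.40 (95% interval -1.14 to 0.33, adjusted p = 0.448).

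BRI1 under MeJA was at 49.1, 43.3 and 48.0 TPM in Criollo, 50.6, 43.6 and 46.7 TPM in Stupicke and 48.6, 53.2 and 48.9 TPM in Micro-Tom. The 3 cultivars overlapped, and the 9 libraries lay within 43.3 to 53.2 TPM. Micro-Tom differed from Criollo by 0.04 (95% interval -0.45 to 0.53, adjusted p = 0.905) and from Stupicke by -0.08 (95% interval -0.56 to 0.41, adjusted p = 0.813). Among MeJA-primed seeds 39.1% of all genes tested were called between Micro-Tom and Criollo, 44.2% between Micro-Tom and Stupicke and 22.4% between Stupicke and Criollo. The counts among the 4 brassinosteroid genes were 2, 3 and 2, all higher in the cultivar named first.

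**Figure D3:**
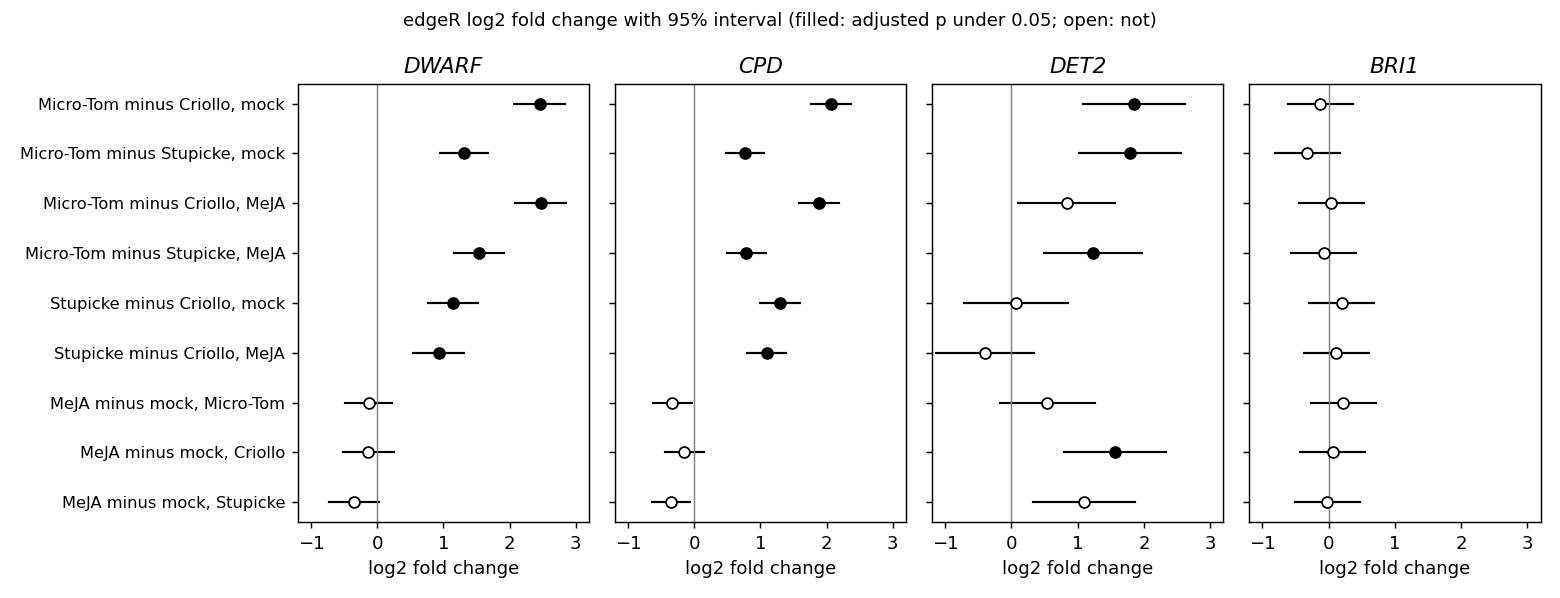
Log2 fold change (horizontal axes) of the 4 genes with its 95% interval in 9 comparisons (rows), from edgeR; filled circles are adjusted p values under 0.05. DWARF and CPD are filled in all 6 comparisons of cultivars and in none of MeJA with mock, DET2 is filled under MeJA in Criollo (1.56), and BRI1 is open throughout.

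The response to MeJA was asked within each cultivar, and among the 4 genes it was called once, for DET2 in Criollo. There the 3 MeJA-primed libraries, at 20.9 to 45.1 TPM, were all above the mock-primed ones, at 7.90 to 17.8 TPM. The counts behind these levels were 96, 149 and 66 reads in mock and 286, 182 and 400 under MeJA. DET2 rose 2.95-fold, or by 1.56 on the log2 scale (SE 0.36, 95% interval 0.80 to 2.33, adjusted p = 0.0213), and 98.1% of all genes tested had a lower value. In Criollo 4.40% of all genes tested were called, and 1 of the 4 brassinosteroid genes. The call was lost when single libraries were left out: mock replicate 1 (1.52, adjusted p = 0.0912), mock replicate 3 (1.33, adjusted p = 0.0858), MeJA replicate 1 (1.57, adjusted p = 0.0550) and MeJA replicate 3 (1.29, adjusted p = 0.0688). The summed seed storage and oil-body genes also stood higher under MeJA in Criollo, and what part this has in the DET2 value was not tested. Those genes were found through an annotation of genes that the study called under MeJA, so their rise is not independent of the choice.

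In Stupicke and Micro-Tom DET2 was likewise higher in TPM in every MeJA-primed library than in any mock-primed one, but neither difference was called. In Stupicke the ranges were 10.6 to 11.9 TPM in mock and 17.4 to 29.1 TPM under MeJA, with a log2 difference of 1.09 (SE 0.36, 95% interval 0.32 to 1.87, unadjusted p = 0.00864, adjusted p = 0.249). It was not called under any of the 28 alternatives, with adjusted p values of 0.0819 to 0.841. In Micro-Tom the ranges were 23.3 to 39.6 TPM and 40.5 to 55.1 TPM, with 0.54 (SE 0.34, 95% interval -0.18 to 1.27, unadjusted p = 0.131, adjusted p = 0.280). In CPM, which carry no length correction and are closer to what the test uses, the Micro-Tom groups overlapped, with 13.2, 11.02 and 27.7 CPM in mock and 20.5, 26.4 and 28.4 CPM under MeJA. The highest mock library of Micro-Tom was replicate 3. Short transcripts were read more in that library, and what part this has in its DET2 value was not tested. Without replicate 3 the log2 difference was 1.05 (adjusted p = 0.0354), and with the length trend removed it was 0.86 (adjusted p = 0.0440), both past the threshold.

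DWARF and CPD had log2 differences below 0 under MeJA in all 3 cultivars, but none was called, and in Criollo the sign turned for DWARF (0.02) without MeJA replicate 2 and for CPD (0.03) without mock replicate 3. For DWARF the values were -0.14 (95% interval -0.52 to 0.25, adjusted p = 0.782) in Criollo, -0.35 (95% interval -0.72 to 0.02, adjusted p = 0.762) in Stupicke and -0.13 (95% interval -0.49 to 0.23, adjusted p = 0.626) in Micro-Tom. For CPD they were -0.15 (95% interval -0.45 to 0.14, adjusted p = 0.647), -0.35 (95% interval -0.64 to -0.06, adjusted p = 0.424) and -0.33 (95% interval -0.62 to -0.04, adjusted p = 0.106), in the same order. The unadjusted p of CPD from edgeR was 0.0205 in Stupicke and 0.0276 in Micro-Tom. Given as CPM, CPD in Micro-Tom was at 124.3, 122.8 and 123.6 in mock against 92.3, 90.9 and 111.6 under MeJA, without overlap, while the TPM overlapped through mock replicate 3. Without replicate 3 of mock-primed Micro-Tom the CPD value was -0.33 (adjusted p = 0.143) and the DWARF value -0.26 (adjusted p = 0.297).

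BRI1 lay near 0 under MeJA, with 0.06 (95% interval -0.43 to 0.55, adjusted p = 0.945) in Criollo and -0.02 (95% interval -0.51 to 0.47, adjusted p = 1.00) in Stupicke. In Micro-Tom it was 0.22 (95% interval -0.26 to 0.71, adjusted p = 0.518), and -0.11 (adjusted p = 0.326) without mock replicate 3. These intervals do not show that BRI1 was unaffected. MeJA called 15.6% of all genes tested in Micro-Tom and 1.56% in Stupicke with edgeR, and none of the 4 brassinosteroid genes in either. With edgeR, 6489 genes in Micro-Tom and 1452 in Stupicke had an unadjusted p under 0.05, among them CPD in Micro-Tom and CPD and DET2 in Stupicke. DESeq2 also called none of the 4 in these cultivars.

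Whether Micro-Tom responded to MeJA differently from the other cultivars was tested as a difference of the log2 fold changes, and none of the 4 genes passed. For DET2 the response of Micro-Tom minus that of Criollo was -1.02 (SE 0.49, 95% interval -2.07 to 0.03, adjusted p = 0.555), and -0.51 (adjusted p = 0.867) without replicate 3 of mock-primed Micro-Tom. Minus that of Stupicke it was -0.55 (SE 0.50, 95% interval -1.60 to 0.50, adjusted p = 0.600), and -0.04 (adjusted p = 0.986) without that library. The call of DET2 in Criollo alone is therefore not shown to be a difference between cultivars. For DWARF the differences were 0.01 (adjusted p = 0.996) and 0.22 (adjusted p = 0.666), for CPD -0.18 (adjusted p = 0.733) and 0.02 (adjusted p = 0.971), and for BRI1 0.17 (adjusted p = 0.858) and 0.24 (adjusted p = 0.729). Such differences were rare in general, with 0.0954% of all genes tested called for Micro-Tom minus Criollo and 0.447% for Micro-Tom minus Stupicke. With edgeR, 1802 and 3037 genes had an unadjusted p under 0.05, none of the 4 among them, and DESeq2 called none of the 4 either.

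In the order of mean levels over the 6 groups, DWARF and CPD were sorted by cultivar first. DWARF stood at 6.88 ± 1.63 TPM (SD, n = 3) in MeJA-primed and 8.46 ± 0.851 TPM in mock-primed Criollo, then at 12.1 ± 2.11 and 15.3 ± 0.510 TPM in Stupicke and at 38.4 ± 4.80 and 40.6 ± 14.9 TPM in Micro-Tom. CPD had the same order, with 17.9 ± 1.64, 21.8 ± 4.31, 35.4 ± 6.06, 45.2 ± 1.66, 67.5 ± 6.41 and 80.8 ± 15.5 TPM. In both genes each pair of treatments of a cultivar did not differ past the threshold, while the cultivars of one treatment did. DET2 was sorted otherwise, from 11.1 ± 0.739 TPM in mock-primed Stupicke and 12.4 ± 5.0 TPM in mock-primed Criollo, which were not called different, over 22.8 ± 5.88 TPM in MeJA-primed Stupicke, 30.1 ± 8.52 TPM in mock-primed Micro-Tom and 33.2 ± 12.2 TPM in MeJA-primed Criollo to 49.7 ± 8.04 TPM in MeJA-primed Micro-Tom. The BRI1 means lay between 43.1 ± 24.6 TPM in mock-primed and 50.2 ± 2.55 TPM in MeJA-primed Micro-Tom, and no pair of neighbours tested was called. Neighbours of unlike cultivar and treatment were not tested.

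Within a library the balance among the 4 genes differed between cultivars. BRI1 made up 40.1 to 56.4% of their summed TPM in the 6 Criollo libraries, 37.3 to 42.1% in the 6 Stupicke libraries, which overlapped Criollo, and 23.1 to 26.3% in 5 of the 6 Micro-Tom libraries, with 10.4% in mock replicate 3. The share of DWARF was 5.94 to 9.93% in Criollo, 8.11 to 13.1% in Stupicke and 15.8 to 23.4% in Micro-Tom. CPD, which in Criollo was read at 0.370 to 0.524 times the level of BRI1, was at 0.691 to 0.991 times in Stupicke and at 1.23 to 4.27 times in Micro-Tom, where the highest ratio is that of mock replicate 3. CPD was thus above BRI1 in TPM in all 6 Micro-Tom libraries and in no library of the other cultivars. DWARF relative to CPD spread from 0.315 to 0.452 in Criollo, from 0.230 to 0.431 in Stupicke and from 0.379 to 0.691 in Micro-Tom, so that the cultivars overlapped in this ratio. DET2 relative to BRI1 was 0.155 to 0.376 in mock-primed and 0.482 to 0.941 in MeJA-primed Criollo, and 0.223 to 0.242 and 0.344 to 0.668 in Stupicke. In Micro-Tom it was 0.411, 0.470 and 2.69 in mock and 0.833 to 1.13 under MeJA.

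**Figure D4:**
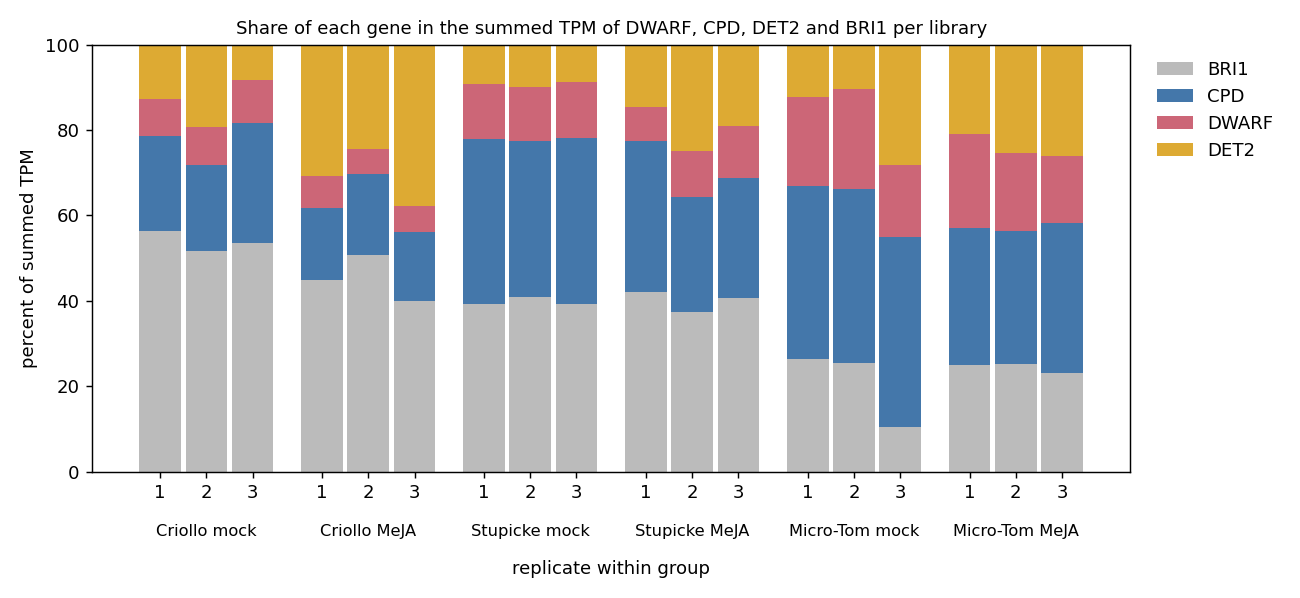
Share of BRI1, CPD, DWARF and DET2 (percent, vertical axis) in their summed TPM, 1 bar per library, grouped by cultivar and treatment with replicates 1 to 3 on the horizontal axis. The BRI1 share is 40.1 to 56.4% in Criollo and 10.4 to 26.3% in Micro-Tom, and the DET2 share is larger under MeJA in each cultivar except for the high mock replicate 3 of Micro-Tom.

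Across the 18 libraries log2 CPM of DWARF and CPD correlated with Pearson's r of 0.945. The other pairs were lower, with 0.525 for DWARF and DET2, 0.402 for CPD and DET2, and -0.0996, -0.119 and -0.329 for BRI1 with DWARF, CPD and DET2. The 18 points share cultivars, treatments and library depth, and the values are given as a description. Among the 17355 genes with a mean of at least 1 CPM, those most like each of the 4 were ranked by the same r over the 18 libraries. For DWARF the 3 nearest had r of 0.960 to 0.973, led by Solyc08g014430.3.1, and for CPD 0.970 to 0.979, led by Solyc10g084990.2.1. The gene nearest to DET2 was Solyc12g098640.3.1 (r = 0.950), which the study annotates as cycloeucalenol cycloisomerase, an enzyme of plant sterol synthesis. The study's annotation covers genes it called under MeJA and was found for few of the nearest genes, so that nothing is drawn from this function. Its mean levels in Criollo, Stupicke and Micro-Tom were 56.0, 44.0 and 88.4 TPM in mock and 74.8, 57.9 and 96.6 TPM under MeJA. For BRI1 the 3 nearest genes had r of 0.973 to 0.975. BRI1 was at 59.1 CPM in replicate 3 of mock-primed Micro-Tom and at 127.3 to 164 CPM in all other libraries. That library thus weighs heavily in every r of BRI1, and no r was computed without it.

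A further synthesis gene, CYP724B2 (Solyc07g056160.4.1), whose product hydroxylates an early intermediate of the pathway in tomato, could be matched through the annotation in the study's supplement. For the same reason as above the choice of this gene is not independent of these data. Its mock levels were 14.5, 15.4 and 17.7 TPM in Criollo, 11.3, 11.1 and 10.4 TPM in Stupicke and 61.4, 68.1 and 30.6 TPM in Micro-Tom. Under MeJA they were 10.1, 9.87 and 13.9 TPM, 11.7, 6.38 and 8.76 TPM, and 48.4, 45.1 and 51.5 TPM. Micro-Tom was above both other cultivars without overlap, as in DWARF and CPD, but Stupicke was not above Criollo. In mock-primed seeds the log2 difference of CYP724B2 was 2.02 (SE 0.18, adjusted p = 5.12e-07) for Micro-Tom against Criollo and 2.28 (SE 0.18, adjusted p = 9.24e-08) against Stupicke. Under MeJA the values of CYP724B2 were 2.15 (adjusted p = 3.34e-07) and 2.39 (adjusted p = 1.16e-07). Neither Stupicke against Criollo nor MeJA against mock was called for it with edgeR, with adjusted p values of 0.270 to 0.953. The study used DESeq2, and its annotation, which includes this gene, covers genes it called under MeJA. An absence of response to MeJA is therefore not shown.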

How the data were processed

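RNA of primed seeds was enriched for polyA and read from both ends on the BGISEQ-500 platform. The authors quantified the reads with Salmon 1.2 on the SL4.0/ITAG4.0 transcriptome, and the deposited estimated counts (not normalized) and deposited TPM (scaled per library by transcript length and depth) cover the same 33976 genes. Counts, rounded to whole numbers, were fitted in R 4.3.3 with edgeR 4.0.16 over all 18 libraries, with TMM normalization, filterByExpr and 1 mean per group. P values were adjusted over all 19914 genes tested, and no minimum fold change was set. The 95% intervals of log2 fold changes use the total degrees of freedom per gene. Length classes come from the ratio of counts to TPM. Median depth was 20195370 estimated reads. Groups come from the labels, no library pair was identical, and no column was left unused. Figures were drawn with matplotlib 3.10.9. Reads shared by similar transcripts are divided by Salmon, which ties the counts of close paralogs to each other.

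The 4 genes and all lists were chosen with earlier results of these data known. Named besides the 4 were listed brassinosteroid genes that an annotation pairs with an identifier (CYP724B2 alone) and genes among the 3 nearest in correlation to each of the 4 (log2 CPM, prior count 2), of which those without annotation were mostly left unnamed. Alternatives were RLE size factors, no filter, a stricter filter (each library of any 1 group at 10 counts or more), the DESeq2 1.42.0 package, only the groups compared, the replicate number as a block, limma 3.58.1 on log2(TPM + 1) and log2(TPM + 0.1), an offset for effective length, and leaving out each library. Removal of the length trend was added after the data had been seen. The code was tested on simulated data.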

Additional observations from a re-analysis of the deposited data

How the results depend on the processing

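The 11 comparisons of 4 genes gave 44 results, each recomputed under 28 alternatives. Of these values 1189 kept their direction and their side of the threshold, 9 newly passed it, 4 no longer passed and 30 changed sign, of which all but 1 (BRI1 without Micro-Tom mock replicate 3, below) were past the threshold neither before nor after. DWARF and CPD kept their calls in all 6 comparisons of cultivars under all 28 alternatives, with log2 fold changes of 2.07 to 2.59 and 1.84 to 2.24 for mock-primed Micro-Tom against Criollo. DET2 kept its calls in mock-primed Micro-Tom against Criollo (1.24 to 2.20) and Stupicke (1.26 to 2.03) and in MeJA-primed Micro-Tom against Stupicke (0.96 to 1.5). BRI1 in mock-primed Micro-Tom minus Criollo turned to 0.21 without mock replicate 3 of Micro-Tom, with a range of -0.35 to 0.21 over the libraries left out, and to 0.20 with the length trend removed. BRI1 in mock-primed Stupicke minus Criollo passed at 0.21 when only the groups compared were fitted and at 0.20 without that library (range 0.15 to 0.24). DET2 in MeJA-primed Micro-Tom minus Criollo passed with DESeq2 (0.85), with only the groups compared (0.84) and without 3 single libraries (range 0.61 to 1.11). DET2 under MeJA in Micro-Tom passed with the length trend removed (0.86), a setting chosen after seeing the data, and without mock replicate 3 (range 0.30 to 1.05). DET2 under MeJA in Criollo was lost without 4 single libraries (range 1.29 to 1.91). The causes were not tested. Uncalled values that changed sign with limma on log2(TPM + 1) and log2(TPM + 0.1) were DET2 (-0.089 and -0.091) and BRI1 (-0.072 and -0.073) in mock-primed Stupicke minus Criollo, BRI1 in MeJA-primed Micro-Tom minus Stupicke (0.10 and 0.10), BRI1 under MeJA in Criollo (-0.092 and -0.094) and the CPD response of Micro-Tom minus Criollo (0.021 and 0.030). With the length trend removed they were BRI1 in MeJA-primed Micro-Tom minus Stupicke (0.085) and the BRI1 response of Micro-Tom minus Criollo (-0.018). Over the libraries left out, uncalled values spanned 0 for BRI1 in mock-primed Micro-Tom minus Stupicke (-0.55 to 0.013), DET2 in mock-primed Stupicke minus Criollo (-0.17 to 0.41), and under MeJA for BRI1 in Micro-Tom (-0.11 to 0.45) and Stupicke (-0.062 to 0.030) and DWARF (-0.27 to 0.017) and CPD (-0.26 to 0.031) in Criollo. The differences in response spanned 0 for DWARF (-0.14 to 0.13) and BRI1 (-0.17 to 0.39) in Micro-Tom minus Criollo and for CPD (-0.079 to 0.14) and BRI1 (-0.090 to 0.47) in Micro-Tom minus Stupicke. With limma on log2(TPM + 0.1) the median of all genes moved to -0.23 for mock-primed Micro-Tom minus Criollo and to -0.25 for Stupicke minus Criollo. Counts of calls over all genes under MeJA ranged from 797 to 4136 in Micro-Tom (3110 in the main test), from 361 to 1812 in Criollo (877) and from 167 to 454 in Stupicke (311), and for the differences in response from 0 to 109 (19) and from 15 to 541 (89). Between Stupicke and Criollo under MeJA they ranged from 2828 to 7224 (4466), and between mock-primed Micro-Tom and Criollo the count was 6630 (9961) when only those groups were fitted. The ratio of DET2 means between mock-primed Micro-Tom and Criollo was 2.42 in TPM and 3.63 in CPM.

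Deviations of same-numbered replicates from their group means correlated at -0.289 to 0.311, in no comparison above 0.1 for all 3 numbers, so that the numbers were not taken to pair samples. With the replicate block DET2 under MeJA in Criollo had a log2 fold change of 1.54 (adjusted p = 0.0288 with edgeR), and the block changed no call. The alternatives for a longer list of pathway genes were not run, because the list held only CYP724B2 beside the 4 genes. DET2 had 66 reads in its lowest library, which limits its precision.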
